A study of Homo sapiens with 6 samples.

Results

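The cystine importer, glutathione-making and ferroptosis genes SLC7A11, SLC3A2, GCLC, GCLM, GSS, GSR, GPX4, AIFM2 and ACSL4 were followed in PC3 cells given heme. They were taken by symbol as a fixed list of 9 genes out of 33514 gene symbols in the count tables, and all 9 were tested. PC3 is an established line of human prostate carcinoma cells, first grown from a metastasis in bone. RNA sequencing covered 3 groups of 2 libraries each: untreated control cells, cells with 50 µM heme in the medium for 2 h, and cells with 50 µM heme for 4 h. All cells grew in RPMI medium with 10% fetal bovine serum. The labels give the control treatment as none and name no vehicle. The same control group serves both times, so heme cannot be told apart from time or handling. Whether the replicates were grown apart is not stated. The p-values therefore measure only how far these libraries spread, and that spread may be technical. In bulk RNA, fewer cells that express a gene and less of its RNA per cell cannot be told apart.

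Glutathione is the main small thiol of cells. Its cysteine enters many cancer cells as cystine, through a transporter made of the light chain SLC7A11 (xCT) and the heavy chain SLC3A2 (CD98). Glutamate-cysteine ligase, with a catalytic subunit GCLC and a modifier subunit GCLM, makes the first and rate-limiting step of synthesis, and GSS the last, while GSR recycles oxidized glutathione. Ferroptosis is an iron-dependent death by lipid peroxidation: the selenoprotein GPX4 uses glutathione to reduce lipid peroxides, AIFM2 (FSP1) protects lipids through ubiquinone, and ACSL4 loads phospholipids with the polyunsaturated fatty acids that become oxidized. SLC7A11, GCLC and GCLM are textbook targets of the transcription factor NRF2, which binds antioxidant response elements, and SLC7A11 is also a target of ATF4.

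Promoter letters are shown because the antioxidant response element is the textbook feature that several of these genes share. RefSeq windows of 300 bases (250 before the transcript start and 50 from it on, GRCh38.p14) were matched for 6 members: GCLM, GCLC, SLC3A2, GPX4, ACSL4 and AIFM2. The antioxidant response element core was searched as TGACNNNGC on both strands, and 3 of the 6 held it. Among all genes with such windows, 16.1% of 27305 held it in at least 1 window (13.3% of 35116 windows); SLC3A2 and GPX4 have 3 windows each and the other 4 members 1, and SLC3A2 held it in 1 of its 3. The capitals mark the match, which lies on the reverse strand of the gene in GCLM and AIFM2 (where it reads GCNNNGTCA) and on the forward strand in SLC3A2.
GCLM, chr1:93909446-93909474, minus strand: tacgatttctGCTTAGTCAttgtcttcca
AIFM2, chr10:70132829-70132857, minus strand: cagcacgagtGCTGAGTCAcgccccgccc
SLC3A2, chr11:62881652-62881680, plus strand: cgagggtgggTGACTCAGCgtcctccttc
The matches begin 34, 22 and 37 bases before the transcript start of that window in GCLM, AIFM2 and SLC3A2. Each of them touches an exon of the same gene in GENCODE 29. The ATF4 response element core was searched as TGATGNAA on both strands. It was held by 1 of the 6 members, SLC3A2, and by 4.46% of 27305 genes (3.62% of windows). In SLC3A2 it lay after the transcript start, at chr11:62881736-62881743, near the end of the window that held the other match, without overlap with that match. A match is a description of letters; of these 3 genes GCLM rose after heme, and AIFM2 and SLC3A2 did not pass the test at either time.

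Gene counts summed to 53129375 in the smallest library and 55537611 in the largest, and 16209 genes passed the filter on low counts. The epithelial genes KRT8, KRT18, KRT19, EPCAM and CDH1 were abundant, as in epithelial cells in general, and summed with the mesenchymal gene VIM to between 2154 and 2512 CPM (read counts scaled to library depth, here without TMM) in every library. VIM itself was low, at 13.1 to 19.4 CPM. KLK3 and FOLH1 had 0 counts throughout. The blood cell and fibroblast marker lists summed higher at 2 h: 47.5 to 55.2 and 43.0 to 49.6 CPM, against 42.2 to 46.0 and 25.7 to 28.8 CPM in control. Most of these sums came from CD68 and COL1A1, while PTPRC, CD3E, DCN and the hemoglobin genes lay at or near 0. CD68 had 41.7 and 45.1 CPM in control and 52.4 and 45.4 CPM at 2 h. CD14 was low, at 0.395 and 0.788 CPM in control and 2.62 and 1.93 CPM at 2 h. By the same test CDH1 rose and EPCAM fell at 2 h, and 1 of 2 blood cell markers and 1 of 1 fibroblast markers tested rose at 2 h. Their part in the results below was not tested. The replicates of the 2 h group differed most, by a mean chi-square of 34.2 per gene, against 22.8 at 4 h and 9.11 in control. Below, CPM values of genes are scaled by TMM. Calls rest on the quasi-likelihood test of edgeR, adjusted after Benjamini and Hochberg over all 16209 genes, at a threshold of 0.05. Log2 changes carry a standard error (SE) from the fit, and means carry an SD with n = 2 libraries.

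SLC7A11, the transport subunit, showed the largest rise of the 9 genes at 2 h and lay near control at 4 h. Its level was 65.4 and 66.6 CPM in control libraries, 121 and 174 CPM at 2 h, and 73.4 and 73.3 CPM at 4 h. Both 2 h libraries lay above all others and stood wide apart, while the 4 h libraries lay slightly above the controls with no overlap. At 2 h it averaged 147 ± 38 CPM, against 66.0 ± 0.873 CPM in control, a 2.23-fold rise (log2 1.16, SE 0.14, edgeR adjusted p = 4.1e-05). At 4 h the log2 change against control was 0.15 (95% interval -0.14 to 0.44, edgeR adjusted p = 1.0). Between the times it fell 2.01-fold at 4 h relative to 2 h (log2 -1.01, SE 0.14, edgeR adjusted p = 1.15e-04). The rise at 2 h was log2 0.85 without the 2 h replicate 2, which was the higher library, and 1.40 without replicate 1, a call in either case. SLC7A11 (ENSG00000151012.13) lies on chromosome 4 from 138164097 to 138242349 on the minus strand of GRCh38. Its exons share 865 bases, 8.97% of their merged length, with the antisense gene SLC7A11-AS1, which has no row of its own in the tables, and without a stated strand setting reads there cannot be assigned.

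SLC3A2, the heavy chain that carries xCT and other amino acid transporters to the membrane, did not rise with it. SLC3A2 had 370 and 422 CPM in control libraries, 368 and 351 CPM at 2 h, and 398 and 427 CPM at 4 h. The 2 h libraries lay lowest, just under the lower control, and the 4 h libraries overlapped the controls. The log2 change was -0.14 at 2 h (95% interval -0.34 to 0.064, edgeR adjusted p = 0.283) and 0.058 at 4 h (95% interval -0.15 to 0.26, edgeR adjusted p = 1.0). SLC3A2 (ENSG00000168003.16) lies on chromosome 11 from 62856102 to 62888875 on the plus strand.

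**Figure D1:**
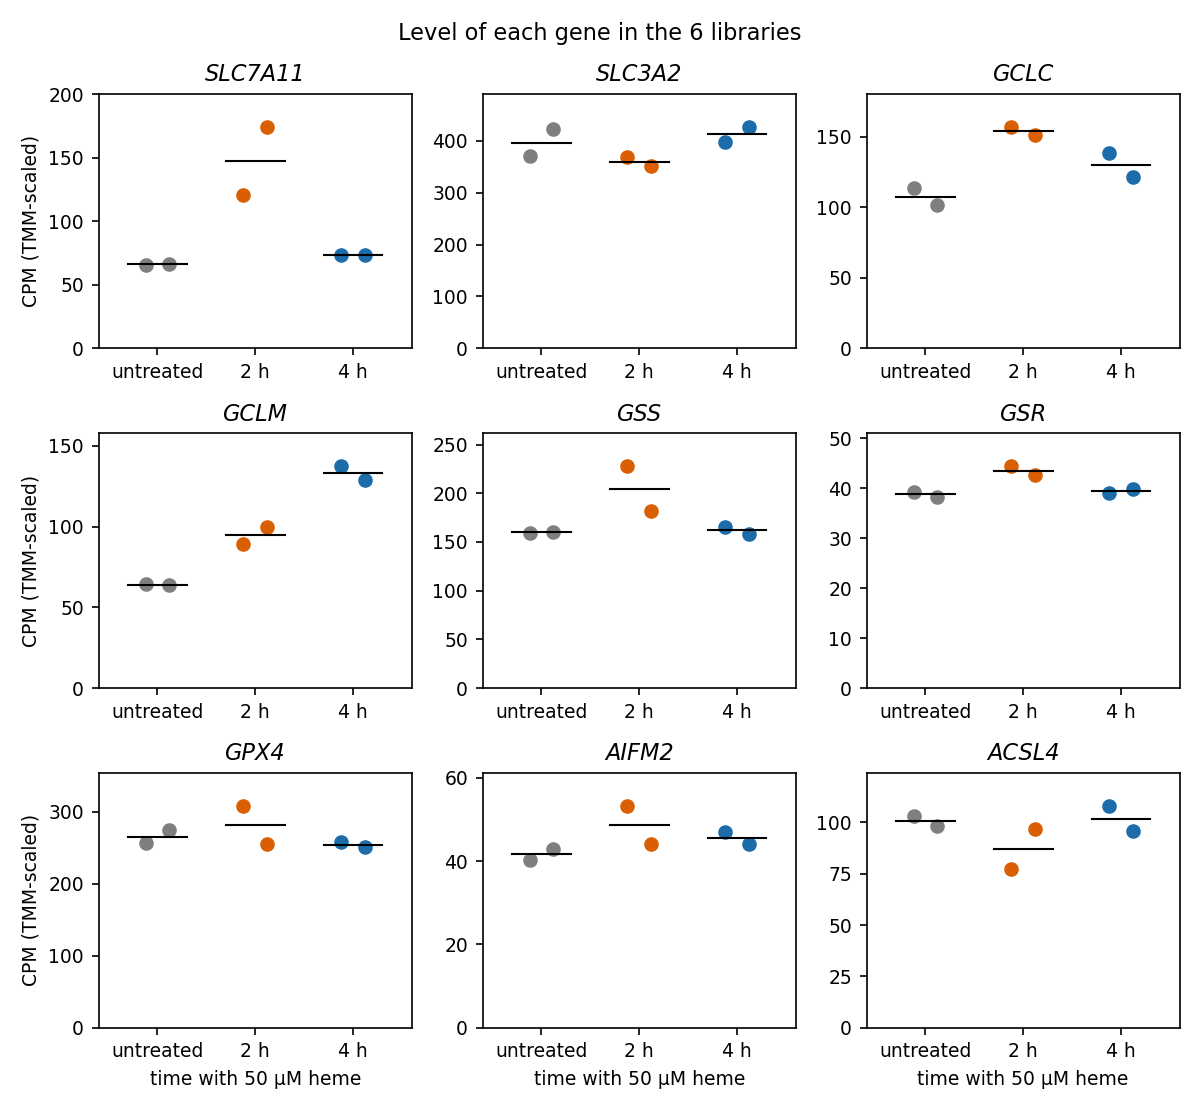
TMM-scaled CPM (y axis, from 0) of each gene in untreated cells and after 2 h and 4 h of 50 µM heme; each point is 1 library, replicate 1 on the left and replicate 2 on the right, and the line is the mean of 2. SLC7A11 stands high at 2 h alone, with 121 and 174 CPM, GCLM is highest at 4 h, with 137 and 129 CPM, and GPX4 overlaps between all groups.

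GCLM, the modifier subunit of glutamate-cysteine ligase, rose at 2 h and rose further by 4 h. GCLM had 64.2 and 63.8 CPM in control libraries, 89.5 and 99.7 CPM at 2 h, and 137 and 129 CPM at 4 h. The 3 groups did not overlap, and each later group lay above the one before. GCLM averaged 94.6 ± 7.25 CPM at 2 h, against 64.0 ± 0.326 CPM in control, a 1.48-fold rise (log2 0.56, SE 0.10, edgeR adjusted p = 8.38e-04). At 4 h it averaged 133 ± 6.13 CPM, a 2.08-fold rise over control (log2 1.05, SE 0.10, edgeR adjusted p = 1.60e-04). The step from 2 h to 4 h was a call too, with log2 0.49 for 4 h against 2 h (SE 0.10, edgeR adjusted p = 0.00220). All 3 calls were kept when any single library was left out. The rise at 4 h stayed between log2 1.01 and 1.11 in those fits. GCLM (ENSG00000023909.9) lies on chromosome 1 from 93885205 to 93909456 on the minus strand.

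GCLM was 1 of only 5 genes of 16209 that passed the threshold at 4 h against control, and it had rank 3 among them by p. The others were HMOX1 (heme oxygenase 1), ZNF469, ALAS1 (heme synthesis, which fell) and CYP1B1. Of these 5, the log2 change for 4 h against 2 h was positive and called in GCLM and ZNF469 (0.63, edgeR adjusted p = 6.07e-04), negative and called in CYP1B1 (-0.49, edgeR adjusted p = 0.00267), and not called in HMOX1 and ALAS1. At an unadjusted p under 0.05, 583 genes passed at 4 h against control. The fit shares its estimate of spread over all groups, of which the 2 h replicates differed most.

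GCLC, the catalytic subunit that joins glutamate to cysteine, rose at 2 h and did not pass the test at 4 h. GCLC had 113 and 101 CPM in control libraries, 157 and 151 CPM at 2 h, and 138 and 122 CPM at 4 h. The 2 h libraries lay highest and the 4 h libraries between, with no overlap between any of the groups. At 2 h GCLC averaged 154 ± 4.26 CPM, against 107 ± 8.58 CPM in control, a 1.43-fold rise (log2 0.52, SE 0.10, edgeR adjusted p = 0.00175). Without control replicate 2 the change was log2 0.42 and missed the threshold (edgeR adjusted p = 0.0563; the range over the 12 alternatives was 1.1e-04 to 1.0). At 4 h its log2 change was 0.27 (95% interval 0.055 to 0.49, edgeR adjusted p = 1.0), an interval above 0 before adjustment for the number of genes. For 4 h against 2 h the log2 change was -0.25 (95% interval -0.46 to -0.028, edgeR adjusted p = 0.0857). GCLC (ENSG00000001084.12) lies on chromosome 6 from 53497341 to 53616970 on the minus strand, and the noncoding gene AL033397.1 shares 529 bases of its exons, 6.12% of their merged length.

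The ratio of GCLM to GCLC, taken per length as RPKM (CPM per kilobase of merged GENCODE exons) within each library, was 0.903 and 1.0 in control, 0.909 and 1.05 at 2 h, and 1.58 and 1.69 at 4 h. The 4 h libraries lay above the other 4, which overlapped. The ratio of SLC7A11 to SLC3A2 per length was 0.0948 and 0.0847 in control, 0.176 and 0.266 at 2 h, and 0.0991 and 0.0922 at 4 h. Here the 2 h libraries stood alone and the 4 h libraries overlapped the controls. No test of these ratios was made.

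**Figure D2:**
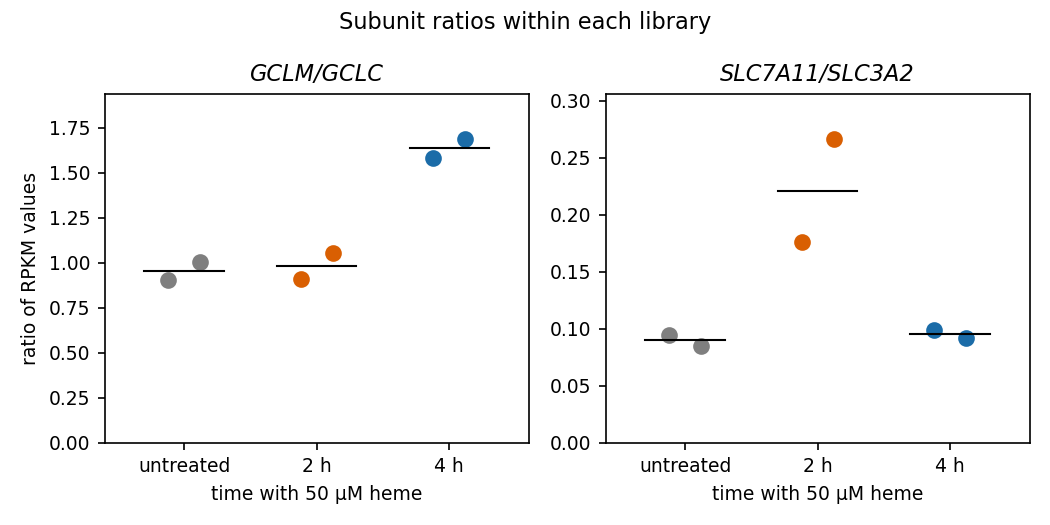
Ratio of RPKM values (y axis, from 0) of GCLM to GCLC and of SLC7A11 to SLC3A2 within each library, in untreated cells and after 2 h and 4 h of heme; points are libraries and lines are means of 2. The GCLM to GCLC ratio is highest at 4 h (1.58 and 1.69), and the SLC7A11 to SLC3A2 ratio at 2 h (0.176 and 0.266).

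GSS, glutathione synthetase, passed the test at 2 h, a call that ended when any of 3 libraries was left out. GSS had 159 and 161 CPM in control libraries, 228 and 181 CPM at 2 h, and 165 and 158 CPM at 4 h. The 2 h replicate 1 stood well above all others, and the 4 h libraries overlapped the controls. The rise at 2 h was 1.28-fold (log2 0.35, SE 0.11, edgeR adjusted p = 0.0226), and the fall at 4 h relative to 2 h was log2 -0.34 (SE 0.11, edgeR adjusted p = 0.0311). Without the 2 h replicate 1 these were log2 0.18 (edgeR adjusted p = 0.224) and -0.16 (edgeR adjusted p = 0.286). The call at 2 h also ended without control replicate 1 (log2 0.34) or control replicate 2 (log2 0.34). The call between the times ended without control replicate 1 (log2 -0.33), control replicate 2 (log2 -0.31), 4 h replicate 1 (log2 -0.36) or 4 h replicate 2 (log2 -0.28). The adjusted p ranged from 6.64e-04 to 1.0 over the 12 alternatives at 2 h and from 0.00106 to 1.0 between the times. GSS (ENSG00000100983.10) lies on chromosome 20 from 34928433 to 34956027 on the minus strand.

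GSR, glutathione reductase, was close to level. GSR had 39.3 and 38.3 CPM in control libraries, 44.3 and 42.6 CPM at 2 h, and 39.1 and 39.9 CPM at 4 h. The 2 h libraries lay a little above the rest with no overlap, and the 4 h libraries overlapped the controls. The log2 change was 0.16 at 2 h (95% interval -0.066 to 0.39, edgeR adjusted p = 0.264) and 0.026 at 4 h (95% interval -0.20 to 0.26, edgeR adjusted p = 1.0). GSR (ENSG00000104687.13) lies on chromosome 8 from 30678061 to 30727999 on the minus strand.

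GPX4, the lipid peroxide reductase at the centre of ferroptosis defence, was the only member whose libraries overlapped between all groups. GPX4 had 257 and 274 CPM in control libraries, 308 and 255 CPM at 2 h, and 258 and 251 CPM at 4 h. Its log2 change was 0.084 at 2 h (95% interval -0.13 to 0.30, edgeR adjusted p = 0.568) and -0.062 at 4 h (95% interval -0.28 to 0.16, edgeR adjusted p = 1.0). The 2 h value turned to log2 -0.061 without the 2 h replicate 1, the highest library. GPX4 (ENSG00000167468.16) lies on chromosome 19 from 1103926 to 1106791 on the plus strand.

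AIFM2, the ubiquinone reductase that acts beside GPX4, did not pass the test. AIFM2 had 40.2 and 42.9 CPM in control libraries, 53.1 and 44.0 CPM at 2 h, and 47.0 and 44.1 CPM at 4 h. The heme libraries all lay above both controls, by little except in the 2 h replicate 1. The log2 change was 0.22 at 2 h (95% interval -0.029 to 0.48, edgeR adjusted p = 0.164) and 0.13 at 4 h (95% interval -0.12 to 0.38, edgeR adjusted p = 1.0). AIFM2 (ENSG00000042286.14) lies on chromosome 10 from 70098223 to 70132934 on the minus strand.

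ACSL4, the member that favours ferroptosis, did not pass the test either. ACSL4 had 103 and 98.2 CPM in control libraries, 77.1 and 96.7 CPM at 2 h, and 108 and 95.6 CPM at 4 h. The 2 h replicate 1 lay lowest, the 2 h replicate 2 just under the controls, and the 4 h libraries overlapped the controls. The log2 change was -0.21 at 2 h (95% interval -0.46 to 0.035, edgeR adjusted p = 0.178) and 0.014 at 4 h (95% interval -0.23 to 0.26, edgeR adjusted p = 1.0). Without the 2 h replicate 2, AIFM2 was called higher at 2 h (log2 0.33, edgeR adjusted p = 0.0303; 0.0303 to 1.0 over the alternatives) and ACSL4 lower (log2 -0.41, edgeR adjusted p = 0.00711; 0.00711 to 1.0 over the alternatives). ACSL4 (ENSG00000068366.19) lies on chromosome X from 109624244 to 109733403 on the minus strand.

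Counted together, 4 of the 9 members rose at 2 h (SLC7A11, GCLM, GCLC and GSS) and 0 fell, by edgeR, by DESeq2 and at an unadjusted p under 0.05 alike. Over all genes 31.7% were called at 2 h in either direction, 15.9% higher and 15.8% lower. Without control replicate 2 the count was 2 members (SLC7A11 and GCLM). At 4 h 1 member rose (GCLM) and 0 fell by edgeR and by DESeq2, with GCLC also higher at an unadjusted p under 0.05; over all genes 0.0308% were called, 0.0247% higher and 0.00617% lower. For 4 h against 2 h, 1 member was higher (GCLM) and 2 lower (SLC7A11 and GSS), while 28.1% of all genes were called, 14% higher and 14.1% lower. GCLC was also lower between the times at an unadjusted p under 0.05, and without the 2 h replicate 2 ACSL4 was called higher (log2 0.42, edgeR adjusted p = 0.0060; 0.0060 to 1.0 over the alternatives). At 2 h the libraries of 8 of 9 members did not overlap with control, 6 higher and 2 lower, and those of 67.8% of all genes did not, 34.6% higher and 33.2% lower. At 4 h this held for 4 of 9 members, all 4 higher, and for 34.4% of all genes, 17% higher and 17.4% lower. Between the times it held for 6 members, 2 higher and 4 lower at 4 h, and for 62.3% of all genes, 29.6% higher and 32.7% lower. The median log2 change of the members was 0.22 at 2 h and 0.058 at 4 h, beside 0.017 and -0.0028 over all genes. The comparisons with control share the control libraries, and the list was chosen with earlier results known, so these counts describe the members and call nothing particular to them.

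**Figure D3:**
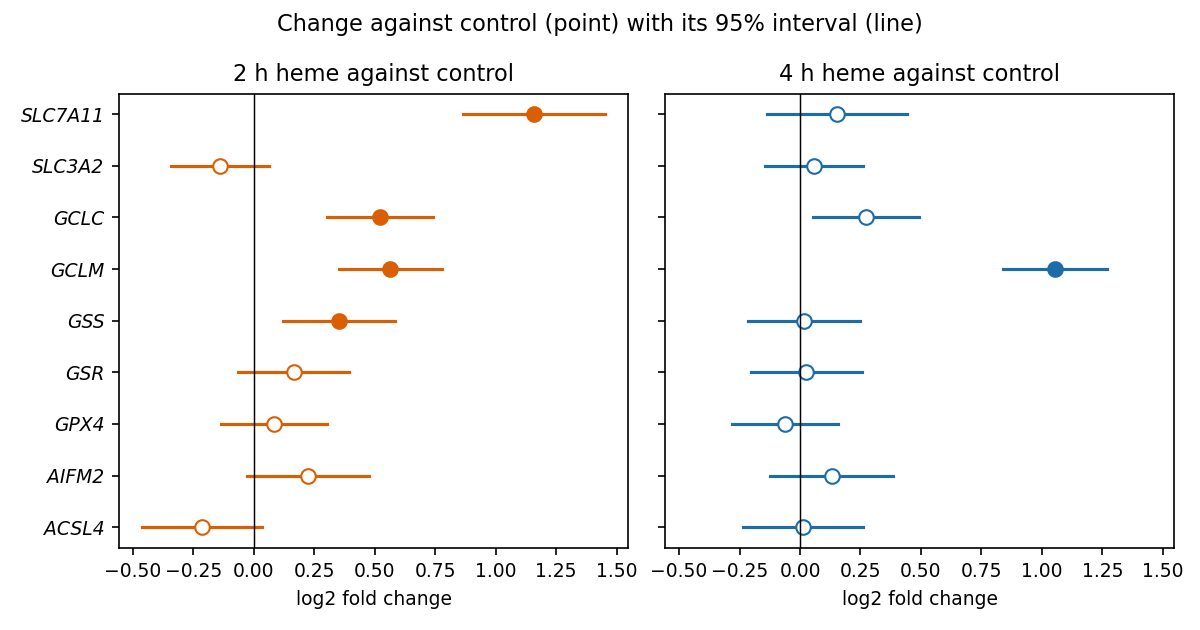
Log2 fold change (x axis) of each gene for 2 h heme against control (left) and 4 h heme against control (right), with lines for the 95% interval; filled points passed edgeR's test. SLC7A11, GCLC, GCLM and GSS are filled at 2 h, and GCLM alone, at log2 1.05, is filled at 4 h.

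The genes differed widely in level. Per length in the control libraries, GPX4 was highest at 132 ± 5.95 RPKM, followed by SLC3A2 at 76.5 ± 7.08 RPKM, GSS at 25.9 ± 0.129 RPKM and ACSL4 at 15.7 ± 0.559 RPKM. Then came GCLC at 12.4 ± 0.993 RPKM and GCLM at 11.8 ± 0.0601 RPKM, which did not differ beyond their spread, and GSR at 10.3 ± 0.196 RPKM. AIFM2 at 8.10 ± 0.377 RPKM and SLC7A11 at 6.84 ± 0.0905 RPKM were lowest. At 2 h SLC7A11 stood at 15.3 ± 3.94 RPKM, within its spread of GCLM at 17.5 ± 1.34 RPKM and ACSL4 at 13.5 ± 2.16 RPKM. At 4 h SLC7A11 was again lowest at 7.61 ± 0.00707 RPKM, and GCLM at 24.5 ± 1.13 RPKM lay beside GSS at 26.2 ± 0.799 RPKM, above GCLC at 15.0 ± 1.36 RPKM. Deposited counts were made with an annotation release that is not given in the sources used here, so lengths, and with them these levels, are approximate.

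The genes with the nearest profile were sought by Euclidean distance over the 6 libraries between log2 CPM values centred on the control mean, among 11930 other genes with a mean of at least 2 CPM. For SLC7A11 they were EREG (distance 0.26), ARNTL (0.29), SHANK2 (0.32), TCF12 (0.34) and MYZAP (0.35), which had log2 changes between 1.03 and 1.27 at 2 h and between 0.0013 and 0.29 at 4 h. For GCLM the distances were larger: LINC02542 (0.59), BMP4 (0.63), AC004812.2 (0.70), ZNF503-AS2 (0.79) and PGBD4 (0.79), all with means between 2.08 and 4.2 CPM. For SLC3A2 they were SLC10A3, FNTB, MRM3, PTDSS2 and KPNA6, at 0.033 to 0.072. GCLM thus had no neighbour as close in profile as those of SLC7A11 or SLC3A2. A gene with small changes, such as SLC3A2, has near neighbours by this measure. Few genes passed the test at 4 h as GCLM did. The distances are therefore not comparable between these genes.

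Of the 135 other genes of the pathway in 7 lists, 134 had a row in the tables and 125 were tested. At 2 h 23 rose and 22 fell, together 36.0% of those tested, beside 31.7% of all genes. The 45 calls became 13 without control replicate 1, 21 without control replicate 2 and 25 without the 2 h replicate 1. The shares of all genes called in those fits were not taken. At 4 h 0 of the 125 were called by edgeR or DESeq2. At an unadjusted p under 0.05, 9 were higher and 2 lower, beside 583 of all 16209 genes in either direction. The 4 genes with the smallest p in each list and comparison are named below. Of the 26 so named at 2 h, 11 kept their call when any single library was left out (SLC1A4, CARS, GGT1, GGT7, CHAC1, LRP8, SCLY, PDSS1, ATF3, MAFF and SQSTM1) and 15 lost it in at least 1 such fit.

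Of 12 tested cysteine supply genes, 7 rose at 2 h and 0 fell (1 fell by DESeq2 and at an unadjusted p under 0.05), with a median log2 of 0.44. The share called was 58.3%, beside 31.7% of all genes. SLC1A4, a neutral amino acid transporter (log2 1.07, SE 0.12), CARS, the cysteinyl-tRNA synthetase (log2 0.53, SE 0.10), CTH, which makes cysteine from cystathionine (log2 0.59, SE 0.12), and SLC1A5, a glutamine transporter (log2 0.45, SE 0.10), had the smallest p, with edgeR adjusted p between 3.20e-05 and 0.00308. CTH lost its call without control replicate 2 (log2 0.51) and SLC1A5 without control replicate 1 (log2 0.36). For 4 h against 2 h 5 of the 12 were lower and MAT2A, which makes S-adenosylmethionine, was higher. Over all genes 14.1% were lower and 14% higher in that comparison.

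Genes of glutathione breakdown and transport split, with 4 of 12 higher and 3 lower at 2 h, which is 58.3%, beside 31.7% of all genes. GGT1 and GGT7 of the gamma-glutamyltransferase family rose (log2 1.75, SE 0.33, and log2 2.19, SE 0.43) from low levels of 0.611 and 0.255 CPM in control. CHAC1, which cleaves glutathione in the cytosol, rose (log2 1.01, SE 0.20), and the aminopeptidase LAP3 fell (log2 -0.40, SE 0.10). The edgeR adjusted p-values of these 4 lay between 0.00129 and 0.00840, and LAP3 lost its call without control replicate 1 (log2 -0.35). GGT1 shares sequence with other members and pseudogenes of its family, so its counts are uncertain.

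Among 25 tested glutathione-using enzymes, 2 rose and 5 fell at 2 h, which is 28.0%. The secreted peroxidase GPX3 rose (log2 0.66), and the S-formylglutathione hydrolase ESD (log2 -0.41) and the glutaredoxins GLRX2 (log2 -0.48) and GLRX3 (log2 -0.35) fell, with edgeR adjusted p between 0.00866 and 0.0149. All 4 lost the call without control replicate 1, with log2 0.65 for GPX3, -0.35 for ESD, -0.47 for GLRX2 and -0.31 for GLRX3. GPX3, GLRX2 and GLRX3 also lost it without control replicate 2 (log2 0.64, -0.51 and -0.42) and without the 2 h replicate 1 (log2 0.48, -0.38 and -0.30). PGD, which supplies NADPH to glutathione reductase, was not called (log2 0.028 at 2 h).

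Genes that serve selenoproteins such as GPX4 had 1 of 15 higher and 4 lower at 2 h, which is 33.3%, near the 31.7% of all genes. LRP8, a receptor for selenoprotein P (log2 -0.78, SE 0.13), and SCLY, which frees selenium from selenocysteine (log2 -0.89, SE 0.17), fell to 46.3 and 3.66 CPM at 2 h, against 79.4 and 6.80 CPM in control. TRIT1, a tRNA-modifying enzyme (log2 -0.38), and SELENOS, itself a selenoprotein (log2 -0.43), also fell. The edgeR adjusted p-values of the 4 lay between 5.82e-04 and 0.0156. TRIT1 lost its call without control replicate 1 (log2 -0.36) or 2 (log2 -0.43), and SELENOS without control replicate 1 (log2 -0.43) or the 2 h replicate 2 (log2 -0.28). For 4 h against 2 h LRP8 (log2 1.0) and SCLY (log2 0.94) were higher. TXNRD1, a selenoprotein and NRF2 target, was not called at either time (log2 0.078 at 2 h and 0.31 at 4 h).

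Of 29 genes of the GPX4-independent defence, 3 rose and 8 fell at 2 h, which is 37.9%. PDSS1, which makes the ubiquinone side chain (log2 -0.70, SE 0.14), DHODH, a mitochondrial ubiquinone reductase (log2 -0.46, SE 0.12), the iron-sulfur protein gene CISD2 (log2 -0.44, SE 0.12) and the vitamin K reductase VKORC1L1 (log2 -0.36, SE 0.09) fell, with edgeR adjusted p between 0.00233 and 0.0106. DHODH lost its call without control replicate 2 (log2 -0.40). CISD2 and VKORC1L1 lost it without control replicate 1 (log2 -0.46 and -0.37) or 2 (log2 -0.45 and -0.37). NQO1, a quinone reductase and NRF2 target, was not called (log2 0.037 at 2 h and 0.27 at 4 h), nor was GCH1, which makes tetrahydrobiopterin (log2 -0.19 and -0.066).

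Of 18 tested genes of the lipid peroxidation machinery only 2 were called at 2 h, or 11.1%: the polyamine enzyme SAT1 rose (log2 0.34, edgeR adjusted p = 0.0183) and the transferrin receptor TFRC fell (log2 -0.39, edgeR adjusted p = 0.0136). Both lost the call without control replicate 1 (log2 0.37 and -0.31) or the 2 h replicate 1 (log2 0.25 and -0.24), and SAT1 without control replicate 2 (log2 0.28). LPCAT3, which works with ACSL4 on phospholipids, had log2 0.066 at 2 h and 0.076 at 4 h and was not called.

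Among 14 regulators 5 rose and 1 fell at 2 h, which is 42.9%, beside 31.7% of all genes. The stress factor ATF3 (log2 1.65, SE 0.14), the small MAF genes MAFF (log2 0.79, SE 0.11) and MAFG (log2 0.56, SE 0.12), whose products pair with NRF2 and BACH1, and SQSTM1, an adaptor that binds KEAP1 (log2 0.56, SE 0.10), had the smallest p, with edgeR adjusted p between 2.22e-06 and 0.00232. MAFG lost its call without control replicate 1 (log2 0.43). NFE2L2, the gene of NRF2, was not called (log2 -0.22 at 2 h and 0.024 at 4 h), nor were KEAP1 (log2 -0.15 and 0.090) and ATF4 (log2 0.074 and -0.025). BACH1, a heme-binding repressor of HMOX1, had log2 0.13 at 2 h and -0.29 at 4 h without a call against control. Its 95% interval at 4 h was -0.54 to -0.034, below 0 before adjustment for the number of genes.

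**Figure D4:**
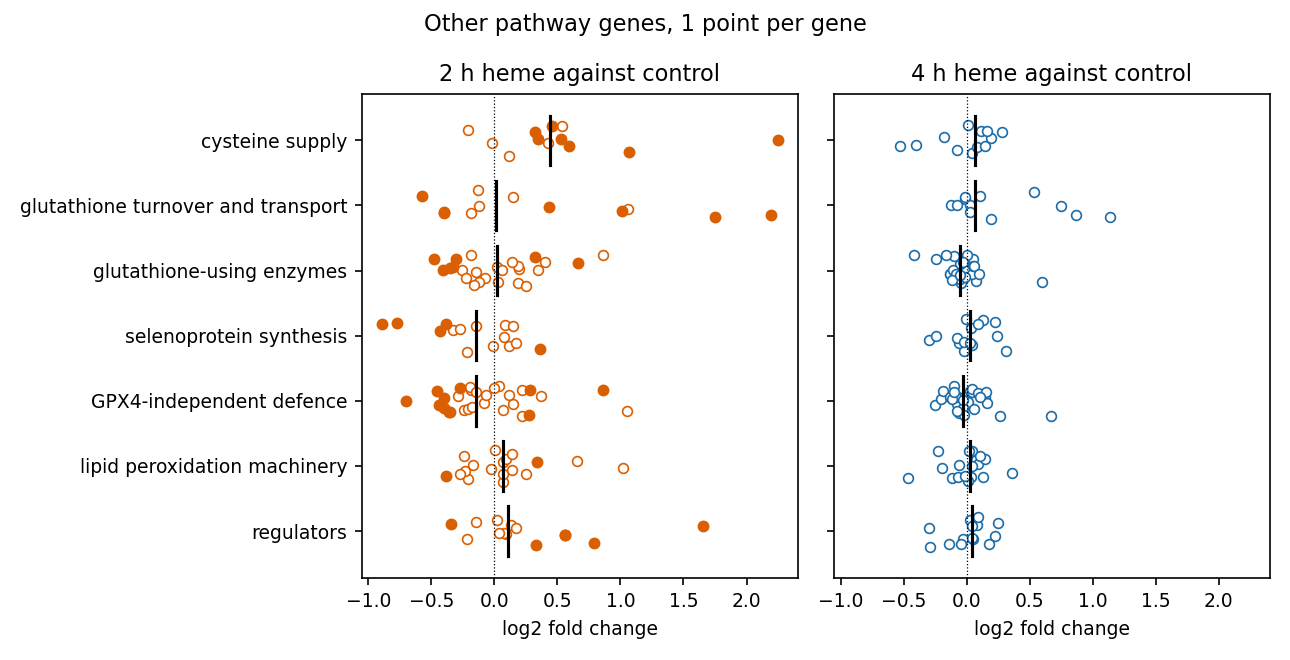
Log2 fold change (x axis) of 125 other pathway genes by list, for 2 h heme against control (left) and 4 h heme against control (right); each point is a gene, filled where edgeR called it, with a vertical shift that only separates points, and the black line is the list's median. At 2 h 23 genes are filled above 0 and 22 below, and at 4 h none of the 125 is filled. At 4 h 9 were higher and 2 lower at an unadjusted p under 0.05, beside 583 of all 16209 genes in either direction.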

How the data were processed

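RNA of 6 PC3 libraries was sequenced after Trizol extraction and Illumina TruSeq preparation, per the labels' protocols. The authors deposited whole-number read counts for each gene symbol, with no normalization. The submitters' processing notes list hg38 as the build, and STAR, Trimmomatic, deepTools and SAMtools as tools; the counter, versions, strand setting and annotation release were not given in the sources used here. The 5 summary lines stayed out; reads in no gene were 5.48% to 6.88% of a library and ambiguous reads 4.23% to 4.48%.

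edgeR 4.0.16 in R 4.3.3 (TMM, filterByExpr with a minimum count of 10, quasi-likelihood test, two-sided) was fitted on all 6 libraries, with 3 residual degrees of freedom, and was tested on simulated data. Alternatives were DESeq2 1.42.0, its size factors, no filter, a replicate block, only the compared groups, glmTreat at 1.5-fold and leaving out each library. Positions and merged exon lengths are from GENCODE 29 (33164 symbols matched), promoters from RefSeq (GRCh38.p14). CARS and SARS were matched as older symbols of CARS1 and SARS1, and GPX1 is not analysed here. A few single-gene results and 1 marker list are not reported here.

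The genes named were the 9 members, up to 4 called genes with the smallest p per pathway list and comparison, and the 5 nearest profiles of SLC7A11, GCLM and SLC3A2; other genes were chosen after their values were seen. The members and lists were chosen with earlier results of these data known. Depth was near equal, so it limits the groups alike; counting intervals would cover counting error only.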

Additional observations from a re-analysis of the deposited data

Results flagged for a closer look

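Levels at 4 h of heme differed from those at 2 h, by the test between the times (edgeR, adjusted p under 0.05), in 3 of 9 members. They also differed in 38 of 125 other pathway genes, or 30.4%, near the 28.1% of all genes so called. Up to 4 genes a list are named, 25 in all. Values are log2 changes for 4 h against 2 h. Among the members GCLM was higher at 4 h (0.49), and SLC7A11 (-1.01) and GSS (-0.34) were lower; GSS was -0.16 and not called without the 2 h replicate 1.

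In cysteine supply SLC1A4 (-1.14), CARS (-0.71) and SLC7A9 (-2.65, at most 0.368 CPM in any group mean) were lower and MAT2A (0.40) was higher. The SLC7A9 call was lost without the 4 h replicate 1 (-2.68) or 2 (-2.59).

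In glutathione breakdown and transport LAP3 (0.43) and CHAC2 (0.56) were higher and GGT1 (-1.0) was lower. All 3 calls were lost without some library: LAP3 without the 4 h replicate 1 (0.38), CHAC2 without the 2 h replicate 1 (0.33) or the 4 h replicate 1 (0.48), and GGT1 without the 2 h replicate 1 (-0.95) or the 4 h replicate 2 (-0.69). CHAC2 was 0.86 without the 2 h replicate 2.

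Of the glutathione-using enzymes GPX3 (-1.08) was lower and ESD (0.35), MGST1 (0.30) and GLRX2 (0.39) were higher. Without the 4 h replicate 1 the calls of ESD (0.24), MGST1 (0.18) and GLRX2 (0.30) were lost. MGST1 also lost its call without control replicate 1 (0.31) or the 2 h replicate 1 (0.29), and GLRX2 without control replicate 1 (0.40), control replicate 2 (0.42) or the 2 h replicate 1 (0.29).

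Of the selenoprotein genes LRP8 (1.0), SCLY (0.94) and SELENOS (0.46) were higher and SARS (-0.33) was lower. SELENOS lost its call without the 4 h replicate 1 (0.36) and was 0.30, still called, without the 2 h replicate 2. SARS lost its call without control replicate 2 (-0.30), the 2 h replicate 1 (-0.17), the 4 h replicate 1 (-0.38) or the 4 h replicate 2 (-0.25).

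In the GPX4-independent defence VKORC1L1 (0.52), PDSS1 (0.66) and DHODH (0.50) were higher and PLA2G6 (-0.97) was lower, a call lost without the 4 h replicate 1 (-0.86). In the lipid peroxidation machinery SAT1 (-0.32) was lower and LPIN1 (0.39) was higher. SAT1 lost its call without control replicate 2 (-0.30), the 2 h replicate 1 (-0.24) or the 4 h replicate 2 (-0.21). LPIN1 lost its call without control replicate 1 (0.39), control replicate 2 (0.41), the 2 h replicate 1 (0.22), the 4 h replicate 1 (0.45) or the 4 h replicate 2 (0.35), and was 0.61 without the 2 h replicate 2.

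Of the regulators ATF3 (-1.95), MAFF (-0.93), BACH1 (-0.42) and SQSTM1 (-0.31) were lower. BACH1 lost its call without the 2 h replicate 2 (-0.21), the 4 h replicate 1 (-0.48) or the 4 h replicate 2 (-0.33). SQSTM1 kept its call only without the 2 h replicate 2 among the 6 such fits, and was -0.15 without the 2 h replicate 1 and between -0.30 and -0.29 in the other 4; it was not called by DESeq2 either (-0.28). The calls of SLC1A4, CARS, MAT2A, GPX3, LRP8, SCLY, VKORC1L1, PDSS1, DHODH, ATF3 and MAFF, 11 of the 25, were kept when any single library was left out.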

How the results depend on the processing

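GCLM kept its calls in all 3 comparisons, and SLC7A11 its calls at 2 h and between the times, under every alternative except, for GCLM, the requirement of a change beyond 1.5-fold. Under that requirement 1 member was called at 2 h (SLC7A11), 0 at 4 h and 1 between the times (SLC7A11), and 4 other pathway genes at 2 h and 4 between the times. With only the compared groups in the fit, 24 pathway genes were called between the times in place of 38. Leaving out a library gave 2 (without control replicate 2) to 6 (without the 2 h replicate 2) members called at 2 h, 1 at 4 h and 2 to 4 between the times. It gave 13 (without control replicate 1) to 57 (without the 2 h replicate 2) pathway genes at 2 h, and 15 (without the 4 h replicate 1) to 56 (without the 2 h replicate 2) between the times, with 25 without control replicate 1. In such fits the direction turned in uncalled values: GPX4 at 2 h ranged from log2 -0.061 to 0.19, and at 4 h GSS from -0.016 to 0.052, SLC3A2 from -0.033 to 0.16 and ACSL4 from -0.076 to 0.10. AIFM2 between the times ranged from -0.20 to 0.052. A group left with 1 library is assumed to vary like the others. The share of all genes called under these alternatives was not taken. Whether the counts of members and pathway genes moved more than those of all genes is therefore not known. Replicate numbers were not taken as pairs: the deviations of replicate 1 correlated by -0.20 (control and 2 h), 0.16 (control and 4 h) and -0.099 (2 h and 4 h). With the replicate block the same numbers of members, 4, 1 and 3, were called, and 38, 0 and 30 pathway genes. Of 324 single-gene values of the members under alternatives, 299 kept direction and side of the threshold.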
